A study of Mus musculus with 24 samples.

Results

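Imprinted growth-control genes were followed in hematopoietic stem cells (HSCs) and in myeloid-biased multipotent progenitors (MPP3s) of mice that make more of the RNA-binding protein TTP. The group holds 10 of the 55376 genes counted in each library, chosen by symbol: Cdkn1c, H19, Igf2, Meg3, Dlk1, Peg3, Ndn, Grb10, Gnas and Mest. All 10 were present in the count tables. The 24 bulk mRNA-seq libraries came from untreated male mice, either homozygous TTPΔARE or WT littermates, which were a few months old when young (Y) and about a year old when middle-aged (M). TTPΔARE mice lack an AU-rich element of Zfp36, the gene for TTP, in every cell, so the deletion was carried by the whole animal and not by the sorted cells alone. HSCs (LSK CD34- Flk2- CD150+) gave 4 Y-WT, 4 Y-TTPΔARE, 5 M-WT and 3 M-TTPΔARE libraries, and MPP3s gave 4 Y-WT and 4 Y-TTPΔARE libraries. The study sets the same numbers beside its mice for HSCs and used fewer TTPΔARE MPP3 samples than the libraries counted here, without naming the one left out. The labels do not say how many mice went into a library.

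An imprinted gene is read mainly from a single parental copy, because DNA methylation or related marks set in the germ line tell the parental copies apart. Many such genes set the rate of growth before birth, and in the marrow several of them are known for keeping stem cells at rest. Cdkn1c encodes p57, an inhibitor of cyclin-dependent kinases that holds HSCs in quiescence. H19 is a maternally expressed non-coding RNA beside Igf2, which encodes a paternally expressed growth factor. Dlk1, a paternally expressed membrane protein related to Notch ligands, shares a cluster with Meg3, a maternally expressed non-coding RNA. Grb10 encodes an adaptor that restrains insulin and IGF receptors. Ndn encodes necdin, a growth suppressor, and Peg3 a zinc finger protein. Gnas encodes the stimulatory G protein subunit with several imprinted isoforms, and Mest a hydrolase-like enzyme. Gene counts add both parental copies, so the libraries measured levels and not imprinting itself.

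The 10 genes lie on 5 chromosomes, and 5 of them are on chromosome 7 (GENCODE M21, GRCm38). Cdkn1c lies at chr7:143458339-143461050 on the minus strand, and H19 (chr7:142575529-142578143, minus) ends 72622 bases before Igf2 (chr7:142650766-142666816, minus). Dlk1 lies at chr12:109452823-109463336 and Meg3 at chr12:109541001-109571726, both on the plus strand, with 77664 bases between them. The region from Dlk1 to Dio3 holds 114 mature miRNAs in the RefSeq table. Peg3 (chr7:6703892-6730431, minus), Ndn (chr7:62346569-62350262, plus), Grb10 (chr11:11930508-12038683, minus), Gnas (chr2:174284320-174346744, plus) and Mest (chr6:30723547-30748465, plus) complete the set. H19 and Meg3 are annotated as long non-coding RNAs and the other members as protein-coding genes.

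TTP binds AU-rich stretches in 3′ UTRs and speeds decay of the mRNA, and its core site is written TATTTAT in DNA letters, which itself contains the pentamer ATTTA. The longest annotated 3′ UTR of each coding member, and the whole transcript of H19 and Meg3, were searched on the transcribed strand for both words. Cdkn1c, Meg3 and Grb10 held TATTTAT, each at a single place. These sites are shown with the 7-base word in capitals, next to the first of the 3 such words in the 3′ UTR of Zfp36, the gene from which the AU-rich element was removed.
Cdkn1c, chr7:143458633-143458657, minus strand: taatatttgTATTTATccatgcgtg
Meg3, chr12:109571174-109571198, plus strand: ataggttttTATTTATtggaaaagt
Grb10, chr11:11931374-11931398, minus strand: tggatctcaTATTTATaagtatgca
Zfp36, chr7:28376968-28376992, minus strand: tgggcccttTATTTATgacgacttt
Of all 21020 coding genes with an annotated 3′ UTR, 27.6% held TATTTAT. Among 2558 3′ UTRs similar in length to that of Cdkn1c (688 bases), 18.4% held it, and for Grb10 (2955 bases) the share was 52.7% of 2499. The 3′ UTRs of Dlk1 (2976 bases) and Igf2 (3050 bases) held ATTTA once each, against a median of 5.0 in 3′ UTRs of similar length, of which 96.4% and 96.8% held it at least once. A match is a word in a sequence and not a measured binding site.

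Dlk1 and Meg3 were the members called lower in M-TTPΔARE HSCs, so their promoter windows, from 250 bases before to 50 after the RefSeq start (GRCm38.p6), are shown. Both strands were searched for GGGCGG, the box read by Sp1-type factors, for TGACGTCA, the palindrome that CREB-type factors are known to bind, for AGATAA, a word of GATA-type factors, and for TATAAA, the TATA box. Matches are in capitals.
Dlk1, chr12:109452573-109452872, plus strand: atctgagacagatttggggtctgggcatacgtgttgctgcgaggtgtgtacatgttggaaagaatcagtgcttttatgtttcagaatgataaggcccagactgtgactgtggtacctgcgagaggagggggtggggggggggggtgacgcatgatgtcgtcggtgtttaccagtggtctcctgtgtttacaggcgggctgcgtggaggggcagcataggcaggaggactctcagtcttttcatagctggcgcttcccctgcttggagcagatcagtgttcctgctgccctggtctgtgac
Meg3, chr12:109540746-109541045, plus strand: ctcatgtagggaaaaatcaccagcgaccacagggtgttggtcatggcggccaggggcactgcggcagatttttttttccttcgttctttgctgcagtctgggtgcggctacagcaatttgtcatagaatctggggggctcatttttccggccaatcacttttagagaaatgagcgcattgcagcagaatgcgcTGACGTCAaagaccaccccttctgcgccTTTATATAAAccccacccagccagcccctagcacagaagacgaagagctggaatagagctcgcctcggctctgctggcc
The Meg3 window held TGACGTCA, and TATAAA on both strands in overlapping letters. Of 32851 promoter windows in the table, 1.79% held TGACGTCA and 13.62% held TATAAA. The Dlk1 window held none of the 4 words and 9 CG pairs, against 13 in the Meg3 window and a median of 7.0 over all windows. GGGCGG stood in 35.66% and AGATAA in 11.18% of all windows.

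H19, Igf2 and Meg3 also carry miRNAs, which the mRNA libraries did not measure. Their mature sequences from RefSeq are given with the seed, bases 2 to 8, in capitals, because the host RNAs held fewer counts in MPP3s than in HSCs and Meg3 also differed between genotypes. Mest carries miR-335, which is not shown.
miR-675-5p in H19: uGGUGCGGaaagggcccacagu
miR-675-3p in H19: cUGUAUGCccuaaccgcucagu
miR-483-5p in Igf2: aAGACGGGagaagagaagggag
miR-483-3p in Igf2: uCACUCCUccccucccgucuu
miR-1906 in Meg3: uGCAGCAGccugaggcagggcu
miR-770-5p in Meg3: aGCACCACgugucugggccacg
miR-770-3p in Meg3: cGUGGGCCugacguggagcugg
No seed was shared among these 7 miRNAs.

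The libraries held between 24261371 and 39934554 counts, and levels are given as CPM, counts scaled by the total of the library and by TMM factors over all 24 libraries. Zfp36 was checked first. It rose from 50.2 ± 7.22 CPM (SD, n = 5) in M-WT to 102 ± 5.80 CPM (n = 3) in M-TTPΔARE HSCs and from 29.5 ± 7.32 to 105 ± 19.2 CPM (n = 4 each) in MPP3s. In young HSCs it was 47.5 ± 17.3 CPM in Y-WT and 94.9 ± 8.31 CPM in Y-TTPΔARE (n = 4 each), and the libraries did not overlap, while its adjusted p was 0.238 in edgeR's quasi-likelihood test. HSC markers such as Procr and Mecom summed to 3289 to 5256 CPM in HSC libraries and 1921 to 3052 CPM in MPP3 libraries, and markers of MPP3s and granulocyte-monocyte progenitors to 332 to 603 and 2488 to 4897 CPM. The Y-WT HSC libraries were uneven: endothelial markers (Cdh5, Kdr, Plvap and 5 others) summed to 804 and 987 CPM in replicates 1 and 4 and to 418 and 409 CPM in replicates 2 and 3, and the other HSC libraries lay between 392 and 479 CPM. Y-TTPΔARE MPP3 replicate 4 had the lowest TMM factor, 0.731 against 0.846 to 1.15 in the other libraries, and the highest sum of T and NK cell markers, 580 CPM against at most 310 CPM. Nkg7 alone held 565 CPM of that sum, and it was 188 CPM or more in every MPP3 library. Among the Y-TTPΔARE MPP3 libraries, replicate 4 was lowest for Cd3e, Cd3d and Cd3g and highest for Cd8a and Klrd1. Without replicate 4 the members called in comparisons with Y-TTPΔARE MPP3s were the same. Genes of olfactory and vomeronasal receptors, not known as genes of blood cells, summed to between 18.8 and 983 CPM in the 24 libraries. Young HSCs, middle-aged HSCs and MPP3s each carry their own run of sample numbers, so that age and cell type cannot be told apart from the library set. In bulk samples, fewer cells of a type and less RNA per cell cannot be told apart.

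Levels between members were compared per kilobase of annotated exon. Gnas was highest in all 6 groups, from 55.7 to 68.2 CPM per kilobase, followed by Cdkn1c, which spanned 30.2 to 52.7 in HSCs and 5.79 to 6.27 in MPP3s, and Ndn, with 19.7 to 29.3 in HSCs and 3.81 to 5.04 in MPP3s. Grb10 came next in HSCs at 12.7 to 19.8 CPM per kilobase. Mest, Meg3 and Dlk1 formed a middle group of 0.487 to 2.22 in HSCs, and their order differed between groups. Peg3, H19 and Igf2 were lowest, at 0.348 CPM per kilobase or less. The Gnas row could not be separated from the antisense gene Gm20721, which reached 609 ± 23.0 CPM in M-WT HSCs (n = 5) where Gnas reached 643 ± 20.9 CPM. Likewise Gm44732, annotated on the opposite strand within Cdkn1c, reached 30.2 ± 3.89 CPM there. Opposite-strand genes also overlap exons of Mest (Copg2), Igf2 (Igf2os), Meg3 (Gm26906) and H19 (Gm27483 and Gm27786). The counting is not stated to use strand, so reads of such pairs cannot be told apart.

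**Figure D1:**
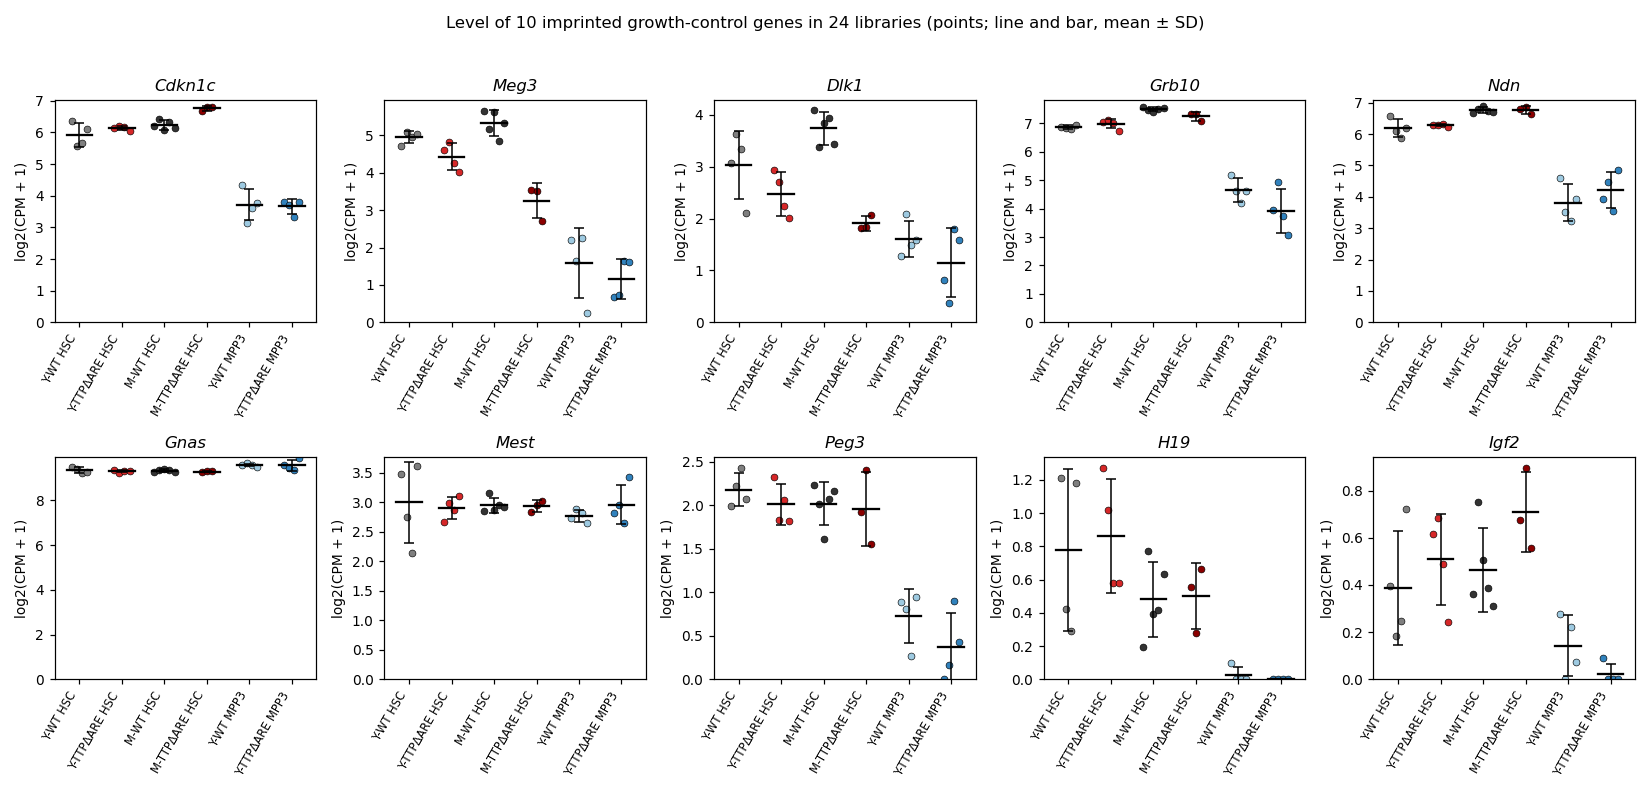
Levels of the 10 genes in all 24 libraries on the log2(CPM + 1) scale, one panel a gene, with 6 groups on the x axis. Points are libraries, and the line and bar give the mean ± SD. Cdkn1c, Meg3, Dlk1, Grb10, Ndn, Peg3, H19 and Igf2 had lower means in both MPP3 groups than in the young HSC groups, while Gnas and Mest stayed close to level.

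The comparison of MPP3s with HSCs asked how the genes differ between the stem cell and a progenitor already leaning to the myeloid lineage. In young WT mice, 5 of the 8 members tested were called lower in MPP3s and none higher, where 22.2% of 22816 genes were called. Calls required a p under 0.05 after Benjamini-Hochberg adjustment in edgeR's quasi-likelihood test, together with a fold change over 1.2 and an average log2 CPM over 1.5. The median log2 fold change over the 7 members above the level limit was -2.25, against 0.12 over all genes above it.

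Cdkn1c, the p57 gene, was 81.8, 46.7, 49.4 and 68.5 CPM in the 4 Y-WT HSC libraries and 19.3, 7.86, 11.2 and 12.8 CPM in the 4 Y-WT MPP3 libraries. Every HSC library was above every MPP3 library, and the fitted level was 5.02-fold lower in MPP3s (log2 fold change -2.33 ± 0.29 SE, adjusted p = 0.000464 in edgeR's quasi-likelihood test). In Y-TTPΔARE mice the HSC libraries were 69.8, 72.2, 70.7 and 65.5 CPM and the MPP3 libraries 13.0, 12.1, 9.07 and 13.1 CPM. There the level in MPP3s was 6.30-fold lower (log2 fold change -2.66 ± 0.14 SE, adjusted p = 2.63e-06 in edgeR).

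Meg3 showed the largest fitted fall of the 5 called members in both genotypes. It was 25.4, 33.0, 29.9 and 32.0 CPM in Y-WT HSCs and 3.63, 2.14, 3.79 and 0.181 CPM in Y-WT MPP3s, a 13.1-fold lower level (adjusted p = 0.00163 in edgeR). In Y-TTPΔARE mice it was 23.5, 27.2, 18.1 and 15.3 CPM in HSCs and 0.609, 0.655, 2.10 and 2.05 CPM in MPP3s, 17.2-fold lower (adjusted p = 9.97e-05 in edgeR). The MPP3 libraries of either genotype ranged over several-fold, and none reached an HSC library. The cluster partner Dlk1 fell less, 3.73-fold in WT (adjusted p = 0.00791) and 3.78-fold in TTPΔARE (adjusted p = 0.0382, both edgeR). The TTPΔARE value for Dlk1 was not firm: with the replicate number as a block its adjusted p was 0.054, and it passed 0.05 in neither that fit nor those that left out any single Y-TTPΔARE HSC library or Y-TTPΔARE MPP3 replicate 1 (adjusted p = 0.0528 to 0.126). Rian, a non-coding RNA further along the same cluster, also fell in WT MPP3s, from 8.63 ± 3.73 to 1.04 ± 1.06 CPM (n = 4 each, adjusted p = 0.0296 in edgeR). In TTPΔARE mice it was 5.16 ± 1.83 CPM in HSCs and 1.51 ± 2.15 CPM in MPP3s (n = 4 each), where one MPP3 library reached 4.73 CPM. Receptor gene sums in MPP3 replicates 1 to 4 were 227, 19.99, 338 and 18.8 CPM in WT and 52.7, 59.2, 542 and 121 CPM in TTPΔARE, and Meg3 and Rian ranked the libraries of each genotype in the same order as these sums. In Y-WT HSCs the sums were 61.4, 790, 983 and 597 CPM in the order of Rian (3.62, 11.2, 11.7 and 7.97 CPM) but not of Meg3. The part of that signal in the values was not tested.

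Grb10 and Ndn went the same way. Grb10 was 115, 114, 109.5 and 123 CPM in Y-WT HSCs and 35.5, 23.7, 17.2 and 23.5 CPM in Y-WT MPP3s, 4.75-fold lower (adjusted p = 7.44e-05 in edgeR). In TTPΔARE mice it fell 8.21-fold (adjusted p = 0.000585 in edgeR), from 126 ± 14.0 to 15.9 ± 9.54 CPM (SD, n = 4 each). Ndn was lower 5.35-fold in WT (adjusted p = 0.000592) and 4.48-fold in TTPΔARE (adjusted p = 0.000152, both edgeR). The necdin gene thus separated the cell types in both genotypes without any overlap of libraries.

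Peg3 was 3.56 ± 0.621 CPM in Y-WT HSCs and 0.683 ± 0.330 CPM in Y-WT MPP3s (SD, n = 4 each), and the groups did not overlap. Its adjusted p of 0.00546 in edgeR was under the threshold, but its average level was under the limit for a call. H19 was near the floor of counting. The 4 Y-WT HSC libraries held 109 counts together (50, 10, 6 and 43) and the 4 Y-WT MPP3 libraries 2, a ratio of 55.8 with a 95% counting interval of 15.1 to 467 after scaling. In Y-TTPΔARE mice the HSC libraries held 120 counts and the MPP3 libraries 0, which makes H19 at least 33.7-fold higher in HSCs when 3 counts are taken as the limit for the whole MPP3 group. Igf2, the neighbour of H19, held 43 counts in Y-WT HSCs and 13 in Y-WT MPP3s (ratio 3.39, interval 1.79 to 6.87), and 60 against 2 in Y-TTPΔARE mice (ratio 25.2, interval 6.69 to 213). These intervals cover counting error only.

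Gnas and Mest did not follow the other members. Gnas was 654 ± 54.3 CPM in Y-WT HSCs and 763 ± 33.8 CPM in Y-WT MPP3s (n = 4 each), with a log2 fold change of 0.18 ± 0.10 SE and an adjusted p of 0.216 in edgeR. Without Y-WT HSC replicate 1 it was called higher in MPP3s (log2 fold change 0.32, adjusted p = 0.0122). Mest was 7.67 ± 3.71 and 5.86 ± 0.475 CPM in the same groups (adjusted p = 0.367 in edgeR). The 95% intervals of the log2 fold change, from -0.04 to 0.40 for Gnas and from -1.21 to 0.33 for Mest, left out falls as large as those fitted for Cdkn1c, Grb10 or Ndn.

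In Y-TTPΔARE mice the same 5 symbols were called lower among 9 members tested, where 16.3% of 21478 genes were called. The 2 comparisons share no library. Above the level limit, library groups did not overlap for 5 of 7 members in WT, all lower in MPP3s, and for 6 of 7 in TTPΔARE, 5 lower and Gnas higher, against 46.1% and 37.5% of all genes above that limit. Endothelial markers were also lower in MPP3s, with 8 of 8 called in WT and 6 of 8 in TTPΔARE. HSC markers were called lower in 7 of 10 in WT and 8 of 10 in TTPΔARE. Markers of MPP3s and granulocyte-monocyte progenitors were called higher in 9 of 10 in either genotype. H19, Cdkn1c, Mest, Ndn, Igf2 and Zfp36 were higher in Y-WT HSC replicates 1 and 4, the libraries with more endothelial counts, than in replicates 2 and 3. For H19 the values were 1.31 and 1.27 against 0.340 and 0.223 CPM, and for Mest 10.2 and 11.3 against 5.75 and 3.42 CPM. Meg3 and Dlk1 did not follow that split, with Dlk1 at 7.39 and 3.31 CPM in replicates 1 and 4 and 11.4 and 9.06 CPM in replicates 2 and 3. With these replicates left out, a choice made after the data were seen, Cdkn1c, Meg3, Dlk1, Ndn and Grb10 were called lower as before, and Mest turned from -0.44 to 0.35 (adjusted p = 0.353 in edgeR). The part of other cells in these differences was not tested.

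**Figure D2:**
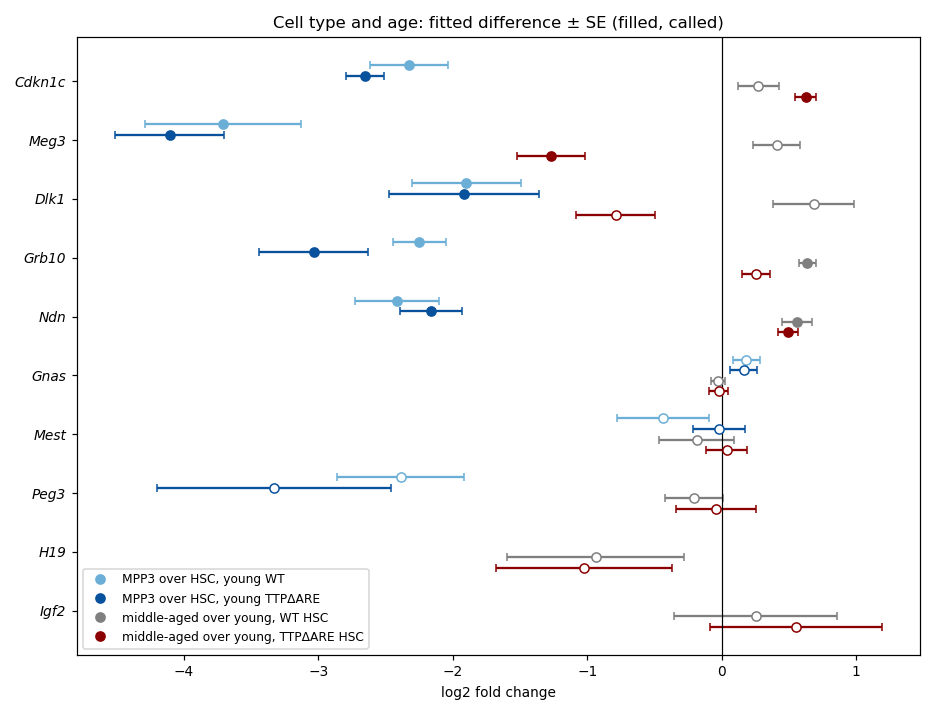
Fitted log2 fold changes (x axis) with SE bars for each member (y axis) between MPP3s and HSCs of young mice and between middle-aged and young HSCs, by genotype. Filled symbols passed the call. Cdkn1c, Meg3, Dlk1, Grb10 and Ndn were called lower in MPP3s in both genotypes, at -1.90 or below. Members without enough counts to be tested, and H19 between cell types, are not drawn.

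TTPΔARE was then compared with WT within each cell type and age, the question of the study. In M-HSCs, M-TTPΔARE libraries had 2 of the 10 members called lower and 1 called higher, where 1.41% of 21136 genes were called. Meg3 and Dlk1 fell and Cdkn1c rose. Of the 8 members above the level limit, 4 did not overlap between genotypes, against 13.8% of all genes above it, and their median log2 fold change was -0.09, against -0.03 over all genes.

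Meg3 was 49.6, 35.1, 48.2, 27.5 and 39.5 CPM in the 5 M-WT libraries and 10.5, 10.4 and 5.55 CPM in the 3 M-TTPΔARE libraries. The lowest M-WT library was above the highest M-TTPΔARE library. The fitted level was 4.71-fold lower in M-TTPΔARE (log2 fold change -2.24 ± 0.25 SE, adjusted p = 0.00206 in edgeR's quasi-likelihood test). Dlk1 was 16.1, 9.40, 13.2, 14.3 and 9.87 CPM in M-WT and 2.51, 2.58 and 3.19 CPM in M-TTPΔARE. It too was lower in every M-TTPΔARE library, by 4.69-fold (log2 fold change -2.23 ± 0.21 SE, adjusted p = 0.000729 in edgeR). Both calls were lost with all 24 libraries in one fit, where the log2 fold changes of Meg3 and Dlk1 were -2.18 each and their adjusted p 0.129 and 0.0723. The pair is the paternally and the maternally expressed gene of a single cluster, and both were lower by about the same factor.

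Cdkn1c went up. It was 72.5, 85.3, 66.9, 79.8 and 69.1 CPM in M-WT and 101, 109.7 and 111 CPM in M-TTPΔARE, without overlap. The rise was 1.39-fold (log2 fold change 0.48 ± 0.08 SE, adjusted p = 0.0163 in edgeR). Its call was lost without M-TTPΔARE replicate 2 or 3 (adjusted p = 0.0715 and 0.098), with the replicate block (0.105) and with all 24 libraries in one fit (0.491). Markers of the sorted cells moved with it. HSC marker sums were 3983 to 4755 CPM in M-WT and 4832 to 5256 CPM in M-TTPΔARE, and sums of MPP3 and granulocyte-monocyte progenitor markers 424 to 511 and 332 to 346 CPM, both without overlap. Among them, Procr rose from 238 ± 16.9 to 321 ± 11.3 CPM (n = 5 and 3, adjusted p = 0.0115 in edgeR) and Cd34, which the sort selects against, fell from 192 ± 18.3 to 119 ± 9.71 CPM (adjusted p = 0.00252 in edgeR), the 2 called of 19 tested. The part of the makeup of the sorted cells in the rise of Cdkn1c was not tested. Gm44732 on the other strand of Cdkn1c was 30.2 ± 3.89 CPM in M-WT (n = 5) and 40.9 ± 2.42 CPM in M-TTPΔARE (n = 3). Grb10 was 191, 178, 167, 179.9 and 185 CPM in M-WT and 161, 162 and 133 CPM in M-TTPΔARE. These libraries did not overlap, and the adjusted p of 0.0688 in edgeR missed the threshold (log2 fold change -0.30 ± 0.07 SE), while DESeq2 gave 0.00378.

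The other 6 members were not called in M-HSCs. Ndn was 108 ± 6.83 CPM in M-WT and 108 ± 9.18 CPM in M-TTPΔARE, with a log2 fold change of -0.04 and a 95% interval from -0.19 to 0.11. Gnas was 643 ± 20.9 and 623 ± 9.64 CPM, and Mest 6.76 ± 0.718 and 6.70 ± 0.525 CPM. Peg3 stood at 3.10 ± 0.638 and 3.01 ± 1.19 CPM. H19 was 0.411 ± 0.220 and 0.423 ± 0.189 CPM and Igf2 0.387 ± 0.178 and 0.643 ± 0.198 CPM, levels at which a library held between 6 and 32 counts of either gene.

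Further along the cluster, Rian was 6.41, 3.49, 7.13, 6.78 and 6.62 CPM in M-WT and 4.68, 2.98 and 1.33 CPM in M-TTPΔARE, with overlap and an adjusted p of 0.157 in edgeR (log2 fold change -1.08 ± 0.34 SE). Mirg reached at most 1.13 CPM in any M-HSC library. Receptor gene sums were 39.2 to 209 CPM in M-WT and 88.3 to 405 CPM in M-TTPΔARE. Markers of other cells moved in both directions. None of the 8 endothelial markers was called, and the median log2 fold change of those above the level limit was -0.04. Plvap was 9.42 ± 3.93 CPM in M-WT and 2.85 ± 2.44 CPM in M-TTPΔARE and Stab2 10.4 ± 4.26 and 3.97 ± 1.93 CPM, while Emcn was 36.7 ± 4.27 and 45.8 ± 4.95 CPM and Flt1 0.675 ± 0.315 and 1.71 ± 1.36 CPM (n = 5 and 3). Cdh5 was 1.15 ± 0.323 and 0.475 ± 0.284 CPM. The endothelial sums were 408 to 479 CPM in M-WT and 425 to 451 CPM in M-TTPΔARE, of which Tie1 held the largest part, 285 ± 14.5 and 278 ± 9.82 CPM. B and plasma cell marker sums were 1308 to 2316 CPM in M-WT and 344 to 1518 CPM in M-TTPΔARE, with overlap. No erythroid, B and plasma or T and NK cell marker was called. Of 10 stromal markers, Pdgfrb (20.3 ± 3.74 to 8.15 ± 1.07 CPM) and Sparc (3.85 to 7.48 CPM in M-WT libraries and 1.14 to 3.17 CPM in M-TTPΔARE libraries) were called lower and none higher. The means of 7 others were higher in M-TTPΔARE without a call: Cxcl12 was 3.63 ± 4.20 and 8.23 ± 9.49 CPM, Pdgfra 0.557 ± 0.366 and 1.83 ± 1.61 CPM, Col1a1 0.540 ± 0.351 and 1.37 ± 1.15 CPM, and Lepr 0.959 ± 1.01 and 1.37 ± 0.788 CPM. Dcn was 0.0211 ± 0.0471 and 0.426 ± 0.160 CPM, without overlap, Col3a1 0.277 ± 0.377 and 0.674 ± 0.320 CPM, and Adipoq, which held too few counts to be tested, 0.0801 ± 0.110 and 0.128 ± 0.115 CPM. Stromal sums were 35.0 to 55.9 CPM in M-WT and 27.3 to 41.3 CPM in M-TTPΔARE. The part of other cells in the fall of Meg3 and Dlk1 was not tested.

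**Figure D3:**
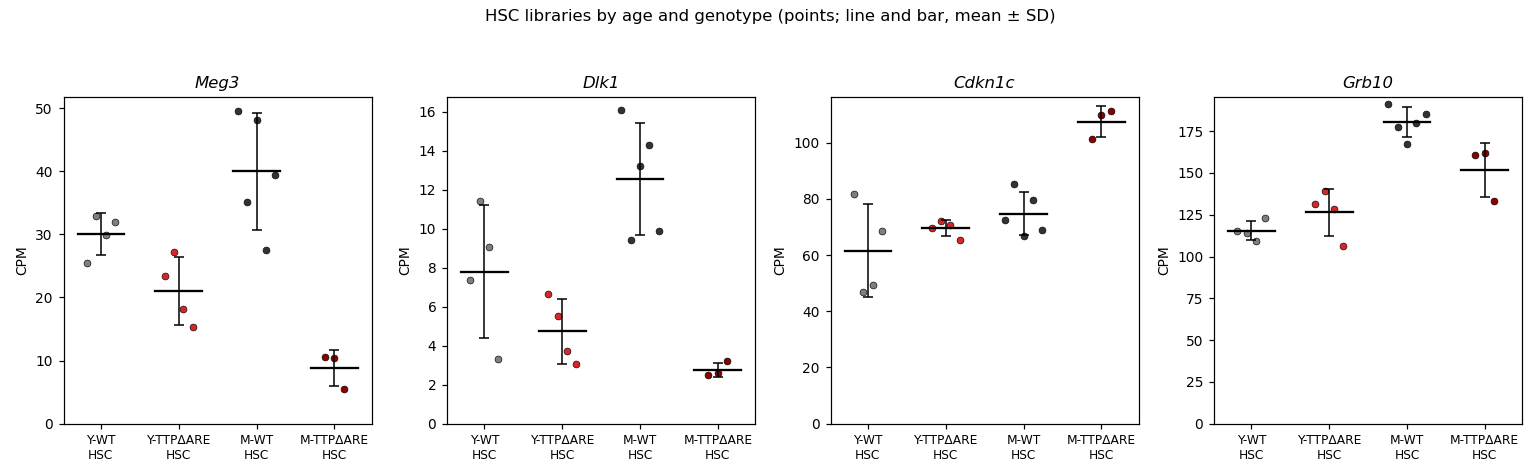
CPM of Meg3, Dlk1, Cdkn1c and Grb10 in the 16 HSC libraries by age and genotype. Points are libraries, and the line and bar give the mean ± SD. The 3 M-TTPΔARE libraries lie below all 5 M-WT libraries for Meg3, Dlk1 and Grb10 and above them for Cdkn1c.

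In Y-HSCs no member was called, where 0.0246% of 24381 genes were called, so that few genes of any kind passed in the test used here. The study names edgeR and the same limits and reported far more genes for this comparison, more than for middle-aged HSCs. The reason for the difference was not tested. In the fit used here, 1799 genes had an unadjusted p under 0.05 in edgeR, Meg3 among them. Meg3 was 30.1 ± 3.35 CPM in Y-WT and 21.0 ± 5.33 CPM in Y-TTPΔARE (n = 4 each), with overlap, a log2 fold change of -0.56 ± 0.18 SE and an adjusted p of 0.413 in edgeR. Dlk1 was 7.79 ± 3.41 and 4.74 ± 1.65 CPM (adjusted p = 0.706). Cdkn1c was 61.6 ± 16.6 and 69.5 ± 2.85 CPM (adjusted p = 0.771), and its Y-WT libraries with the fewest endothelial counts were its lowest. Grb10 (115 ± 5.57 and 126 ± 14.0 CPM) and Ndn (72.6 ± 15.1 and 76.7 ± 1.97 CPM) differed by less than the spread between libraries. Without Y-WT replicates 1 and 4, Cdkn1c had a log2 fold change of 0.56 in place of 0.13 (adjusted p = 0.10) and Mest of 0.54 in place of -0.27 (adjusted p = 0.236), and no member was called. Erythroid marker sums were 44.6 to 54.5 CPM in Y-WT and 125 to 351 CPM in Y-TTPΔARE. T and NK cell marker sums were 48.4 to 62.6 and 81.9 to 146 CPM, and HSC marker sums 3289 to 3717 and 3840 to 3930 CPM. Stromal marker sums went the other way, with 79.2 to 224 CPM in Y-WT and 41.0 to 61.3 CPM in Y-TTPΔARE. None of these sums overlapped between genotypes. Endothelial sums were 409 to 987 and 392 to 446 CPM, with overlap. The fitted levels of all 8 endothelial markers were lower in Y-TTPΔARE, with a median log2 fold change of -1.34. No stromal or endothelial marker was called. Sums of MPP3 and granulocyte-monocyte progenitor markers and of B and plasma cell markers overlapped. Of 6 erythroid markers tested, 1 was called, Hbb-bt, which was higher (log2 fold change 1.60, adjusted p = 0.0285 in edgeR). The part of the makeup of the sorted cells in the Y-HSC values was not tested.

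In Y-MPP3s no member was called either, where 1.71% of 19023 genes were called, and H19 and Igf2 held too few counts to be tested. Meg3 was 2.43 ± 1.68 CPM in Y-WT and 1.35 ± 0.833 CPM in Y-TTPΔARE (n = 4 each), and Dlk1 2.11 ± 0.787 and 1.39 ± 1.03 CPM. The fitted log2 fold changes were -0.87 ± 0.75 SE and -0.68 ± 0.60 SE (adjusted p = 0.672 and 0.679 in edgeR). Cdkn1c was 12.8 ± 4.82 and 11.8 ± 1.88 CPM (adjusted p = 0.857). Grb10 was 25.0 ± 7.68 and 15.9 ± 9.54 CPM with an interval of the log2 fold change from -1.56 to 0.30, which is wide enough to hold the difference fitted in M-HSCs. Of 10 markers of MPP3s and granulocyte-monocyte progenitors, Elane and Fcgr3 were called higher in Y-TTPΔARE, by 2.53 and 1.99 on the log2 scale, and none lower. No HSC marker was called, and their sums were 2378 to 3052 CPM in Y-WT and 1921 to 2460 CPM in Y-TTPΔARE. Hbb-bt and Klrd1 were called higher, and Tie1 and Pdgfrb lower. The part of the makeup of the sorted cells in the Y-MPP3 values was not tested.

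Whether the effect of TTPΔARE differed between contexts was tested by interaction terms. Between ages, the log2 effect on Meg3 was 1.74 ± 0.32 SE lower in M-HSCs than in Y-HSCs, written as -1.74, and on Dlk1 -1.52 ± 0.47 SE. Their adjusted p were 0.143 and 0.249 in edgeR over 28189 genes, of which 0.0213% were called. For Meg3 the call depends on the tool: its adjusted p was 0.000279 in DESeq2, 0.00744 in the likelihood ratio test of edgeR, 0.0132 without a filter on low counts and 0.0499 without Y-WT HSC replicate 1. For Dlk1 no alternative passed, so its fall in M-HSCs was not shown to differ from the value in Y-HSCs. Grb10 had an interaction of -0.44 ± 0.12 SE (adjusted p = 0.225 in edgeR) and Cdkn1c 0.30 ± 0.20 SE (adjusted p = 0.432), which was -0.16 without Y-WT HSC replicates 1 and 4. Between cell types no member was called, where 0.429% of 26337 genes were called, and the smallest adjusted p of a member was 0.544 for Grb10.

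**Figure D4:**
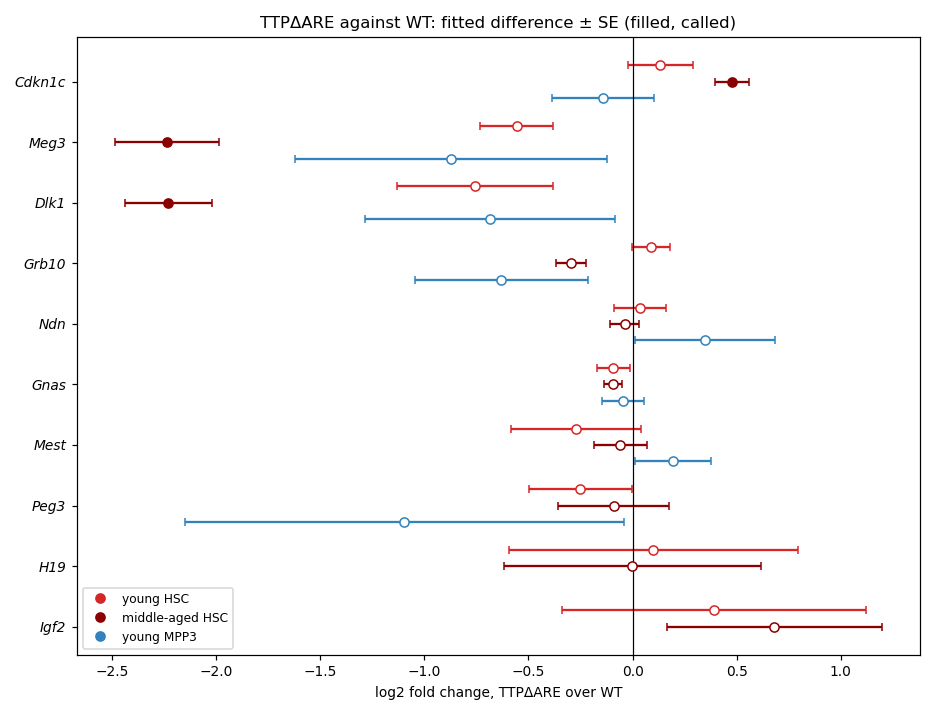
Fitted log2 fold change of TTPΔARE over WT (x axis) with SE bars for each member (y axis) in young HSCs, middle-aged HSCs and young MPP3s. Filled symbols passed the call. Meg3 and Dlk1 lie near -2.2 in middle-aged HSCs and Cdkn1c at 0.48, and no symbol of the other comparisons is filled.

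Age was compared within each genotype. In WT HSCs, 2 of 10 members were called higher in middle-aged mice and none lower, where 12.1% of 22280 genes were called. Ndn rose from 93.5, 68.1, 57.5 and 71.4 CPM in Y-WT to 101, 111, 118, 105 and 103 CPM in M-WT. All M-WT libraries were above all Y-WT libraries, a 1.48-fold rise (log2 fold change 0.56 ± 0.11 SE, adjusted p = 0.00741 in edgeR). Grb10 rose 1.55-fold, from 115 ± 5.57 CPM (n = 4) to 180 ± 8.92 CPM (n = 5), also without overlap (adjusted p = 0.000192 in edgeR). Meg3 and Dlk1 were 1.33-fold and 1.61-fold higher in the fit and were not called (adjusted p = 0.111 and 0.124 in edgeR). Meg3 was called without M-WT replicate 4 (adjusted p = 0.0228).

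In TTPΔARE HSCs, 2 members were called higher and 1 lower in middle-aged mice, where 8.22% of 23336 genes were called. Cdkn1c rose from 69.5 ± 2.85 CPM (n = 4) to 107 ± 5.42 CPM (n = 3), 1.54-fold (adjusted p = 0.000812 in edgeR). Ndn rose 1.41-fold (adjusted p = 0.00213). Meg3 fell 2.41-fold, from 23.5, 27.2, 18.1 and 15.3 CPM to 10.5, 10.4 and 5.55 CPM, without overlap (log2 fold change -1.27 ± 0.25 SE, adjusted p = 0.0104 in edgeR). Dlk1 was lower by 0.79 on the log2 scale, with overlapping libraries (adjusted p = 0.138). The age and genotype comparisons share the same HSC libraries, so their values are not independent of each other. Over all genes above the level limit, library groups did not overlap for 21.4% in WT and 31.9% in TTPΔARE, and for 2 and 3 of the 8 members above it. Endothelial markers moved with age as well, with 5 of 8 called lower and 1 higher in WT and 3 lower and 1 higher in TTPΔARE. HSC markers were called higher with age in 8 of 10 in WT and 7 of 10 in TTPΔARE, markers of MPP3s and granulocyte-monocyte progenitors lower in 3 and higher in 1 of 9 in either genotype, and T and NK cell markers lower in 3 and 5 of 6. The part of these cells in the differences with age was not tested. Without Y-WT replicate 1, Cdkn1c too was called higher in M-WT (adjusted p = 0.0133 in edgeR), and likewise without Y-WT replicates 1 and 4 (log2 fold change 0.62, adjusted p = 0.00599 in edgeR). With all 24 libraries in one fit no member was called for age in either genotype, with adjusted p of 0.111 and 0.085 for Ndn and Grb10 in WT.

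Across the 24 libraries, the gene whose log2 CPM followed Dlk1 most closely among 13611 genes was Meg3 (Pearson r = 0.864, n = 24 libraries). Within groups, after the mean of each group was removed, r was 0.257, so that most of the likeness came from differences between groups, which share cell type, age and set. Cdkn1c was followed by its antisense neighbour Gm44732 (r = 0.996), by Tbxas1 (0.993) and by Mllt3 (0.990), a chromatin reader on the HSC marker list. Meg3 was most like Spats2 (0.940), Epas1 (0.937) and Clca3a1 (0.925). Ndn was most like Gm42517, Tcf15 and Hacd4 (0.986 each) and Grb10 most like Scarf1, Arhgap29 and Mmrn1 (0.984 each). Mest had the weakest neighbours, with Cdk20 at 0.726, Dram2 at 0.711 and Lamp1 at 0.698. Gnas was most like Gm20721 (0.985), which overlaps it on the other strand, then Tsn (0.967) and Slc25a39 (0.958). Cdkn1c and Ndn had r = 0.970 with each other and 0.705 within groups. These are descriptions over libraries with large group differences.

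**Figure D5:**
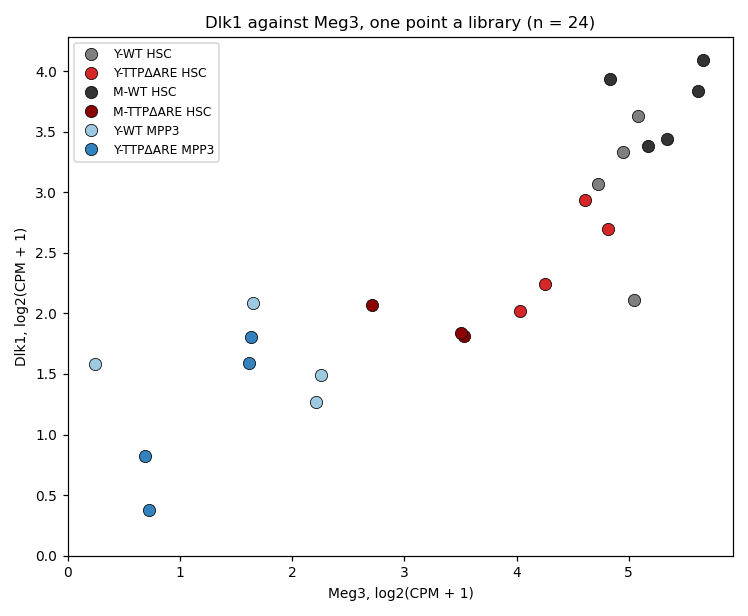
Dlk1 (y axis) against Meg3 (x axis), both log2(CPM + 1), with one point for each of the 24 libraries coloured by group. Points of M-WT HSCs lie at the upper right, those of MPP3s at the lower left, and the 3 M-TTPΔARE HSC libraries, with Meg3 at 5.55 to 10.5 CPM, lie between the MPP3s, at most 3.79 CPM, and the other HSCs, at least 15.3 CPM.

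Other imprinted genes were counted on a list of 63. In M-HSCs, 2 of 46 tested were called, both lower in M-TTPΔARE, beside 1.41% of all genes. They were Slc22a3, an organic cation transporter, from 42.6 ± 6.73 to 22.3 ± 2.12 CPM (n = 5 and 3, log2 fold change -0.98 ± 0.13 SE, adjusted p = 0.00587 in edgeR) and the non-coding RNA Peg13, from 120 ± 8.06 to 92.5 ± 7.51 CPM (adjusted p = 0.0242). In Y-HSCs and Y-MPP3s none was called, of 55 and 39 tested. Between cell types, 11 of 50 fell and 3 rose in WT MPP3s, and 7 of 47 fell and 2 rose in TTPΔARE MPP3s, where 22.2% and 16.3% of all genes were called in either direction. Asb4 fell by 2.33 in WT and by 2.40 in TTPΔARE on the log2 scale, and Htr2a, a serotonin receptor gene, by 1.17 and 1.48, while Slc22a3 rose by 1.24 and 0.96. Snrpn and Airn fell in WT MPP3s, by 2.78 and 2.73 on the log2 scale (adjusted p = 0.00518 and 0.00769 in edgeR). With age, Igf2r, the receptor that clears IGF2, rose in WT HSCs from 27.9 ± 6.93 to 43.3 ± 5.32 CPM (adjusted p = 0.0199) and in TTPΔARE HSCs from 32.7 ± 3.40 to 52.9 ± 3.96 CPM (adjusted p = 0.00184), while Slc22a3 fell by 0.82 and 1.69 on the log2 scale.

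The cell cycle list of 22 brakes and cyclins gives the background to Cdkn1c. In M-HSCs, 2 of 20 tested were called, both lower in M-TTPΔARE, beside 1.41% of all genes. Cdk6, the kinase that promotes exit from quiescence, was 111 ± 22.1 CPM in M-WT and 68.5 ± 2.48 CPM in M-TTPΔARE (log2 fold change -0.75 ± 0.15 SE, adjusted p = 0.033 in edgeR), and Rbl1, a pocket protein, 65.7 ± 4.40 and 52.9 ± 2.36 CPM (adjusted p = 0.0269). In Y-MPP3s, 1 of 20 was called: Cdkn1a, which encodes the inhibitor p21, rose 2.08-fold in Y-TTPΔARE, from 8.65 ± 2.10 to 18.4 ± 3.93 CPM (n = 4 each, adjusted p = 0.0417). Between cell types, 13 of 20 rose and 2 fell in MPP3s in either genotype, beside 22.2% of all genes called in WT and 16.3% in TTPΔARE. Mki67, a proliferation marker, rose by 2.49 on the log2 scale in WT and by 1.95 in TTPΔARE, and Cdk6 by 1.68 and 1.52. With age, 5 of 20 fell and 1 rose in WT HSCs and 10 fell and 2 rose in TTPΔARE HSCs, beside 12.1% and 8.22% of all genes. Top2a fell from 117 ± 6.93 to 58.5 ± 7.27 CPM in WT and from 133 ± 27.0 to 57.7 ± 7.88 CPM in TTPΔARE.

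On the IGF and insulin list of 32 genes, 1 of 28 tested was called in M-HSCs, where 1.41% of all genes were: Pik3r1, a regulatory subunit of PI3-kinase, rose from 331 ± 30.1 to 446 ± 25.7 CPM (log2 fold change 0.38 ± 0.07 SE, adjusted p = 0.0248 in edgeR). None was called in Y-HSCs (31 tested) or Y-MPP3s (26 tested). In WT MPP3s against HSCs, 9 of 31 fell and 5 rose, and in TTPΔARE 5 of 29 fell and 1 rose, beside 22.2% and 16.3% of all genes. The mRNA-binding protein gene Igf2bp2 fell by 3.04 and 3.67 on the log2 scale. Igfbp7, a secreted binding protein, fell by 3.72 and 1.98, and its Y-WT HSC libraries were spread widely, at 59.0 ± 49.0 CPM (n = 4). With age, 5 of 31 fell and 6 rose in WT HSCs, and 1 of 30 fell and 3 rose in TTPΔARE HSCs, beside 12.1% and 8.22% of all genes. Pik3r1 and Mtor were higher with age in both genotypes, by 0.68 and 0.65 on the log2 scale in WT and 0.55 and 0.44 in TTPΔARE.

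Of 17 genes that set, keep or remove DNA methylation or guard imprints, among them the Tet enzymes, 1 of 15 tested was called in M-HSCs, where 1.41% of all genes were: Dnmt1, the maintenance methyltransferase, fell from 217 ± 18.7 to 169 ± 9.46 CPM (log2 fold change -0.41 ± 0.07 SE, adjusted p = 0.0136 in edgeR). None was called in Y-HSCs (16 tested) or Y-MPP3s (15 tested). In MPP3s against HSCs, 10 of 16 rose and none fell in WT, and 7 rose and 1 fell in TTPΔARE, beside 22.2% and 16.3% of all genes. Dnmt1 rose 2.87-fold and 1.71-fold, and Uhrf1, its partner at replicated DNA, 3.77-fold and 2.77-fold. With age, Uhrf1 and Hells fell in both genotypes, Uhrf1 from 90.4 ± 5.88 to 65.8 ± 13.7 CPM in WT and from 91.1 ± 15.5 to 45.5 ± 2.34 CPM in TTPΔARE, while Zfp57, which guards methylated imprints, rose 1.87-fold in WT (adjusted p = 0.0014). On these 4 lists no gene was called in either interaction test.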

How the data were processed

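RNA of sorted HSCs and MPP3s was sequenced in 24 libraries of 6 groups taken from the labels. The authors trimmed reads with Trim Galore!, aligned them to mm10 with STAR and counted them with featureCounts, and deposited raw counts for 55376 gene symbols in each library. The labels and the study's methods name different library kits, and strand and multimapping settings are not given in the sources used here. No column of other samples was present (0 unused).

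Counts were tested in R 4.3.3 with edgeR 4.0.16 (genes kept by filterByExpr at a count of 10 and a total count of 15, TMM, quasi-likelihood fit over the groups of each comparison, two-sided, Benjamini-Hochberg adjustment over all genes tested). A call needed an adjusted p under 0.05, a fold over 1.2 and an average log2 CPM over 1.5, with no fold limit for interactions. SE is the log2 fold change divided by the root of F, and 95% intervals use the t quantile of the fit. Replicates differed by more than sampling noise and were all kept. The sources do not say that each library is a separate animal, so p-values may measure only the spread between these samples. Depth ran from 24261371 to 39934554 counts.

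Replicate numbers were checked as pairs by the correlation of deviations. Only in MPP3s against HSCs of TTPΔARE mice were all 4 over 0.1 (0.38, 0.221, 0.173 and 0.23). All 10 members were named, with Zfp36, up to 6 called genes of each list, and the 3 genes most like each member above the level limit. The members and lists were chosen with earlier results of these data known. Alternatives were DESeq2 1.42.0, a likelihood ratio test, other scaling, no filter, other limits, one fit over all libraries, the replicate block and each library left out. The newer edgeR dispersion estimate and leaving out Y-WT HSC replicates 1 and 4 were chosen after seeing the data. The statistics were tested on simulated data.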

Additional observations from a re-analysis of the deposited data

Results flagged for a closer look

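Of 49 sets tested for a library apart from the rest, each the levels of 1 gene in a group of 4 or 5 libraries, 2 were marked. Chance marks about 1 in 20 where values spread normally. H19 was 0.0705 CPM (2 counts) in Y-WT MPP3 replicate 1 and 0 in the other 3 libraries of the group. Igf2 was 0.0641 CPM (2 counts) in Y-TTPΔARE MPP3 replicate 1 and 0 in the other 3. With the rest of a set at 0, any count in a single library is marked, so neither mark shows a library apart.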

How the results depend on the processing

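Over 16 to 25 alternatives a comparison, 1505 of the members' log2 fold changes kept their direction and side of the threshold, 17 lost a call, 16 gained one and 95 changed sign, 0 of these in a called value. With all 24 libraries in one fit, 0 members were called for TTPΔARE against WT in M-HSCs (3 in the report), 0 for age in WT (2) and 0 for age in TTPΔARE (3). Without a filter on low counts 4 were called for age in WT. For genotype by age, 1 member, Meg3, was called in DESeq2, in the likelihood ratio test and without a filter, and single libraries left out gave 0 to 1. The causes were not tested. Signs turned with library totals to Ndn -0.00206 for TTPΔARE against WT in Y-HSCs, H19 0.027 for TTPΔARE against WT in M-HSCs, Gnas -0.0322 for MPP3s against HSCs in WT, Dlk1 0.0946 and Gnas 0.0424 for genotype by cell type, Gnas 0.064 for genotype by age. Signs turned without Y-WT HSC replicates 1 and 4 (chosen after seeing the data) to Gnas 0.021 and Mest 0.54 for TTPΔARE against WT in Y-HSCs, Mest 0.35 for MPP3s against HSCs in WT, H19 0.53, Gnas 0.00759 and Mest 0.55 for age in WT, Dlk1 0.42 and Mest -0.30 for genotype by cell type, Cdkn1c -0.16, Igf2 -0.84 and Mest -0.67 for genotype by age. Signs turned in DESeq2 to H19 0.00608 for TTPΔARE against WT in M-HSCs, Dlk1 0.0659 and Gnas 0.0378 for genotype by cell type, Gnas 0.00342 for genotype by age. Signs turned with RLE factors to H19 0.00666 for TTPΔARE against WT in M-HSCs, Dlk1 0.0639 and Gnas 0.0378 for genotype by cell type, Gnas 0.0033 for genotype by age. Signs turned with all 24 libraries in one fit to H19 0.0425 and Ndn 0.00949 for TTPΔARE against WT in M-HSCs, Gnas 0.000185 for TTPΔARE against WT in Y-MPP3s, Mest 0.0901 for MPP3s against HSCs in TTPΔARE. Signs turned with the replicate block to H19 0.25 for TTPΔARE against WT in M-HSCs, H19 0.00394 for genotype by age. Signs turned without a filter to Gnas 0.0541 for age in WT, Gnas 0.00754 for genotype by cell type. With single libraries left out the ranges that crossed 0 were Gnas -0.0876 to 0.0356, H19 -0.26 to 0.53, Ndn -0.0209 to 0.26 and Mest -0.48 to 0.00443 for TTPΔARE against WT in Y-HSCs. They were H19 -0.34 to 0.32, Mest -0.14 to 0.00807 and Peg3 -0.44 to 0.12 for TTPΔARE against WT in M-HSCs. They were Cdkn1c -0.30 to 0.0711 and Gnas -0.10 to 0.00106 for TTPΔARE against WT in Y-MPP3s. They were Mest -0.13 to 0.077 for MPP3s against HSCs in TTPΔARE. They were Igf2 -0.0365 to 0.83, Gnas -0.0621 to 0.0463 and Mest -0.42 to 0.0556 for age in WT. They were Peg3 -0.37 to 0.21, Gnas -0.0387 to 0.0195 and Mest -0.0276 to 0.13 for age in TTPΔARE. They were Dlk1 -0.35 to 0.35 and Gnas -0.11 to 0.12 for genotype by cell type. They were H19 -0.58 to 0.28, Peg3 -0.25 to 0.31, Gnas -0.18 to 0.0176, Igf2 -0.35 to 0.51 and Mest -0.0767 to 0.41 for genotype by age. With the replicate block, 2 members were called for TTPΔARE against WT in M-HSCs and 4 for MPP3s against HSCs in TTPΔARE, and no other count of members moved. The genes called in all fell from 298 to 108 in M-HSCs, from 2691 to 1580 for age in WT and from 1918 to 914 for age in TTPΔARE under that block. DESeq2 called 304 genes in Y-HSCs (6 in the report), 823 in M-HSCs (298), 768 in Y-MPP3s (326), 336 for genotype by cell type (113) and 161 for genotype by age (6). One fit over all libraries called 53 in M-HSCs, 1244 in Y-MPP3s, 5747 for MPP3s against HSCs in TTPΔARE and 805 for age in TTPΔARE. Leaving out single libraries gave 0 to 12 genes in Y-HSCs, 68 to 299 in M-HSCs (95, 136 and 68 without M-TTPΔARE replicates 1, 2 and 3) and 0 to 56 for genotype by age. Gnas was called higher in TTPΔARE MPP3s with all libraries in one fit (0.27, adjusted p = 0.0221). Levels of H19, Igf2 and Peg3 were limited by depth.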
